A study of Rattus norvegicus with 53 samples.

Results

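Fam111a and LOC294154 are 2 of the 32576 genes measured in whole eyes of heterogeneous stock (HS) rats. They were chosen by measured values, namely the wide spread of their read counts between these same eyes and their place in the study's list of genes with a local expression variant. Their levels and their spread are therefore given as descriptions, with no test. Fam111a is the row ENSRNOG00000012067, with its start at position 229003961 of chromosome 1 (Rnor_6.0), and LOC294154 is the row ENSRNOG00000038883, with its start at position 7397448 of chromosome 20. The name LOC294154 is a placeholder built on an NCBI gene number, and RefSeq now lists the gene with number 294154 as Ilrun.

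One eye was taken from each of 53 outbred HS rats of the NIH stock, which descends from a set of inbred strains, and the extraocular muscles were removed before polyA RNA was extracted. Some rats of the wider study had been through behavioral tests and nicotine self-administration. The sources used here do not say whether any of these 53 had, nor the age and sex of each rat. The 51 eyes that the authors kept were analysed as 1 group, 40 with their original label and 11 with a label corrected against DNA genotypes, and 2 removed eyes were not analysed here. Expected counts summed to between 9109084 and 42146827 in an eye (median 16193478), and a count of 0 allows up to 3 counts, or 0.0712 CPM (counts in 1000000) in the deepest eye and 0.329 CPM in the shallowest, for counting error only. Of 112 genes in the pathway and cell type lists, 5 could be matched to a row, so the tissue label was not checked against its markers. In bulk RNA of a whole eye, fewer cells of a type and less RNA per cell cannot be told apart.

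FAM111A is a trypsin-like serine protease that binds PCNA, the sliding clamp of DNA replication, and helps replication forks to pass proteins bound to DNA. It also restricts the growth of some viral mutants, and mutations of the human gene cause Kenny-Caffey syndrome, in which eye findings occur. ILRUN is a regulator of inflammation and lipid metabolism with a ubiquitin-associated-like domain, which holds back transcription of interferon and other antiviral genes that IRF3 drives.

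The stretches just upstream of both genes are shown because the levels described here are levels of their transcripts. Each is 140 bases, lies outside the gene as RefSeq places it in the rat build GRCr8, with 13 bases between the stretch and the gene for Fam111a and 6 for LOC294154, and is printed 5′ to 3′ on the gene's strand. Capitals mark matches to the cAMP response element TGACGTCA and to the GC box GGGCGG on either strand (CCGCCC), where neighbouring GC boxes may overlap. The first is chr1:219065389-219065528 on the plus strand and the second chr20:5878089-5878228 on the minus strand, both in GRCr8.
Fam111a: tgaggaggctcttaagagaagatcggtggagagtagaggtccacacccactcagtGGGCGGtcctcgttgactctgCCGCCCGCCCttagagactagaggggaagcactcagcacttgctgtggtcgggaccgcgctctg
LOC294154 (Ilrun): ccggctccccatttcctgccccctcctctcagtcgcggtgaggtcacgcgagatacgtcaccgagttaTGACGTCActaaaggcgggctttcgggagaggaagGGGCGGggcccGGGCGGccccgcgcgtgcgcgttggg

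The Fam111a stretch held 3 GC boxes and 60.7% G and C, and the LOC294154 stretch held 2 GC boxes, 1 cAMP response element and 69.3% G and C. Among 33469 windows cut the same way from the RefSeq promoter table, 15.1% held a GC box and 0.427% held the response element. Neither stretch held CCAAT (or ATTGG), found in 19.97% of windows, or TATAAA (or TTTATA), found in 7.26%. These matches are descriptions of the letters in these windows.

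Fam111a ranged from no reads to a well expressed gene between eyes. Its level was 0 in the lowest eyes, 21.6 CPM in the median eye and 226 CPM in the highest, with quartiles of 1.92 and 83.9 CPM (mean 50.1 ± 63.1 CPM, SD, n = 51). It was listed at 0 in 3 eyes, where 3 counts would be 0.153, 0.178 and 0.185 CPM, and 7 eyes had 3 counts or fewer. In 10 eyes it was under 1 CPM, and in 10 others it was at 100 CPM or more, with up to 6141 expected counts in 1 eye. Spearman's rho between Fam111a and the total count of the eye was -0.12 (permutation p = 0.414).

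On the log2(CPM + 1) scale, in which a pseudocount of 1 narrows differences among low values, the SD of Fam111a was 2.71. Of 13844 genes whose median reached 1 CPM, called expressed here, 6 had a larger SD. The median SD was 0.37 for the 200 expressed genes nearest to Fam111a in mean level, each of which varied less than Fam111a. Of the 3198 expressed genes that reached 100 CPM in some eye, 12 were listed at 0 in another, and Fam111a and its neighbour ENSRNOG00000048953 were among these 12.

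The widest gaps between successive eyes on the log2 scale lay just above and just below a single eye at 7.99 CPM. Below it, 22 eyes ran from 0 to 4.48 CPM with a median of 1.36 CPM. Above it, 28 eyes ran from 14.8 to 226 CPM with a median of 79.8 CPM. The gaps were 0.81 (from 7.99 to 14.8 CPM) and 0.71 (from 4.48 to 7.99 CPM), so neither reached the 1 log2 unit set for separate groups, and by that rule the 51 eyes formed 1 group. Values of the 28 higher eyes spread over 15.3-fold with no gap over 0.46 among them, and these sets of eyes come from the values and are not groups of the study.

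**Figure D1:**
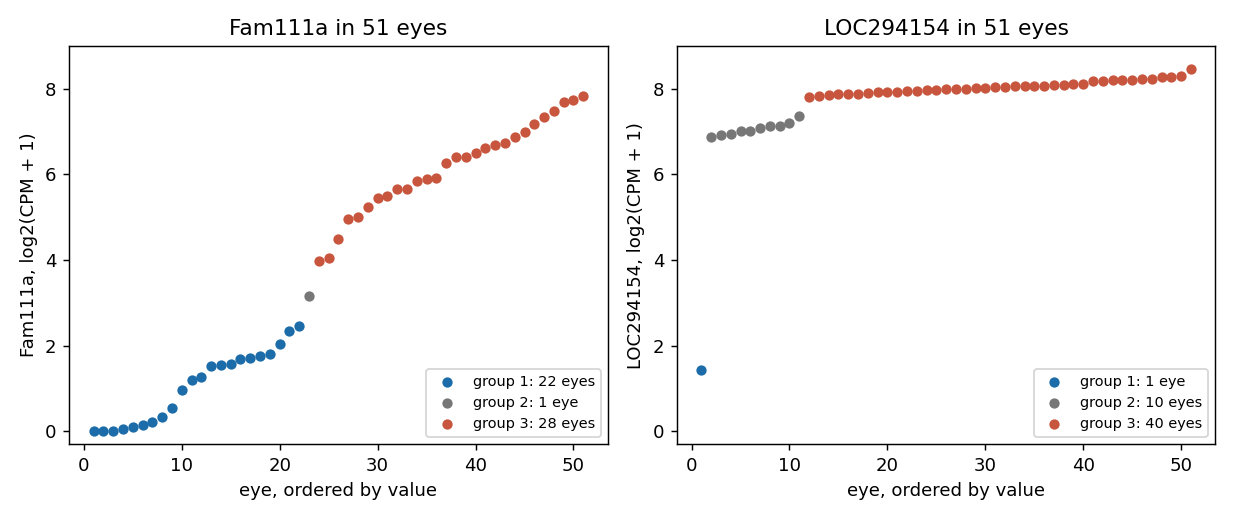
Level of Fam111a (left) and LOC294154 (right) as log2(CPM + 1) on the vertical axis, in 51 eyes ordered by value on the horizontal axis, 1 point per eye. Colours mark sets of eyes cut at gaps of over 0.5 for Fam111a (22, 1 and 28 eyes) and over 0.4 for LOC294154 (1, 10 and 40 eyes). Fam111a has gaps of 0.81 and 0.71 on the 2 sides of 1 eye and climbs in smaller steps elsewhere. LOC294154 lies at levels around 131 and 264 CPM, parted by a gap of 0.44, with 1 eye far below.

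LOC294154 was well expressed in every eye but 1. Its level was 1.71 CPM in the lowest eye, 117 CPM in the next, 255 CPM in the median eye and 354 CPM in the highest (mean 235 ± 67.8 CPM, SD, n = 51). The step from 1.71 to 117 CPM was 68.3-fold. A second gap lay between 163 and 222 CPM, a ratio of 1.36 or 0.44 on the log2 scale, against at most 0.17 between any other successive eyes. It set apart 10 eyes at 117 to 163 CPM from 40 eyes at 222 to 354 CPM. The median was 131 CPM in the 10 eyes and 264 CPM in the 40 eyes, so the lower median was 49.6% of the higher. Within each set the highest eye was 1.40-fold and 1.59-fold above the lowest.

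The SD of LOC294154 was 0.99 in log2 units, a larger value than in 97.9% of expressed genes and in each of the 200 nearest in level, whose median was 0.29. It rested in large part on 1 eye, since without the lowest eye it was 0.43 (an alternative chosen after seeing the data). The lowest eye, called eye 50 here, had 31 expected counts of LOC294154 among 18113700 counts in all, the rank of 37 among 51 totals counted from the lowest. Its Fam111a level was 15.5 CPM, in the higher set of that gene. Over expressed genes its median correlation with the other 50 eyes was 0.937, and these medians ran from 0.888 to 0.964 over the eyes, with a median of 0.954. Of the 30 expressed genes within 1 Mb of LOC294154, 3 had their lowest value in eye 50 and 11 stood above their own median there, with z scores from -2.66 to 2.17.

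Few well expressed genes had this pattern. Of 1864 genes whose median reached 100 CPM, 32 fell under 5% of their median in some eye. Among these 32 genes, 2, of which LOC294154 is 1, had a single eye under 10% of the median. Eye 50 was the lowest eye for 2 of the 32, again counting LOC294154.

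**Figure D2:**
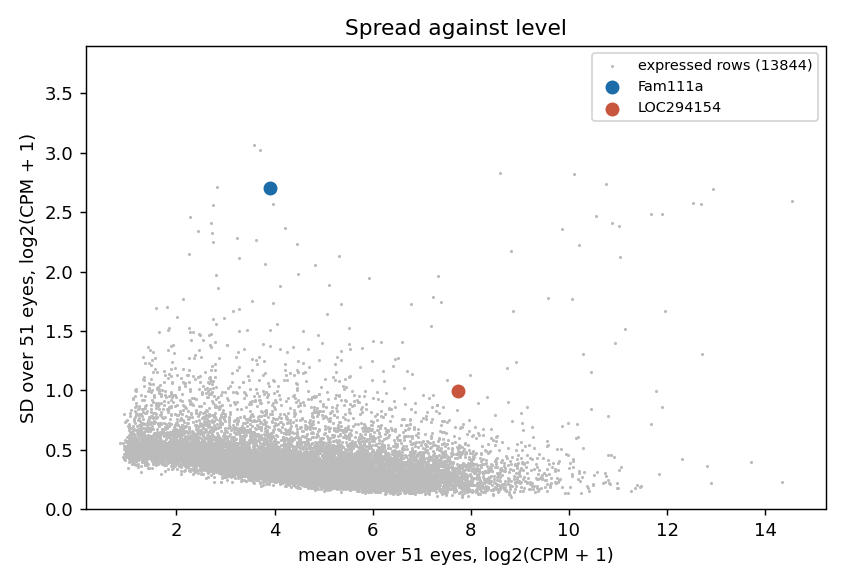
SD over 51 eyes on the vertical axis against the mean on the horizontal axis, both of log2(CPM + 1), for the 13844 expressed genes (grey) with Fam111a (blue) and LOC294154 (red). Fam111a at an SD of 2.71 and LOC294154 at 0.99 lie above the band of genes of like level, whose median SD is 0.37 and 0.29.

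The RSEM program gives a whole expected count where it divides no read between transcripts of different genes, and a broken number where it does. Expected counts of Fam111a were whole in 48 of the 48 eyes above 0, and those of LOC294154 in 51 of 51, within 0.01 or the precision of the deposited digits. That precision is coarser at high counts, so 9304.71 counts of LOC294154 in 1 eye passed as whole. The largest counts of any gene always pass. Counts were whole in every eye for 88.9% of expressed genes, and in under 50% of eyes for 6.90%. Of genes named below, Guf1 was whole in 9 of 51 eyes, Ptp4a1 in 19 and Man2b2 in 30. LOC100910577 was whole in 35 of 45 eyes above 0. ENSRNOG00000048953, a neighbour of Fam111a, was whole in 1 of 44 eyes above 0, whereas ENSRNOG00000050414 between them was whole in 42 of 42. RefSeq lists a similarly named gene, Fam111al1, and a pseudogene, Fam111a-ps1, beside Fam111a, and their rows could not be identified here.

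No difference in level by the label of the eye passed a test. Fam111a had a median of 2.47 CPM in the 11 eyes with a corrected label and 30.4 CPM in the 40 others, and its mean log2 level was lower by 0.82 ± 1.01 (SE; two-sided permutation p = 0.382, adjusted over 4 tests 0.765). For LOC294154 the mean was higher in the eyes with a corrected label, by 0.10 ± 0.231 (p = 0.775), and without eye 50 this difference was -0.06. The 39 eyes with the common tag prefix differed from the 12 others by 0.10 ± 0.946 for Fam111a (p = 0.909) and by 0.51 ± 0.555 for LOC294154 (p = 0.136, adjusted 0.544), and eye 50 is among the 12. Without that eye the LOC294154 difference was -0.03. These intervals are wide, and differences of this size in either direction were not detectable with 51 eyes.

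The levels of Fam111a and LOC294154 had no relation that passed a test across eyes. Spearman's rho was -0.01 (permutation p = 0.942) and Pearson's r was 0.02 (p = 0.944). When the 2 eyes with the most extreme Fam111a values were left out, r was 0.04, and rho was 0.01 in the 39 eyes of the common prefix and -0.11 in the 12 others. Of the 10 eyes at the middle level of LOC294154, 5 lay in the lower set of Fam111a and 5 in the higher set, and of the 40 upper eyes, 17 lay in the lower and 22 in the higher.

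Which genes varied with Fam111a was asked with Spearman's rho over the 51 eyes and 100000 permutations, adjusted by the Benjamini-Hochberg method over 13843 genes. No gene passed an adjusted p of 0.05 (0 genes, 0.0%), and 1841 had an unadjusted p under 0.05. With 20 expression components removed, 40 genes passed (0.289%), but 0 when p was taken from the t distribution on the 29 degrees of freedom left. Of the genes with a name, the closest in pattern over 51 eyes were Sbds, a ribosome maturation factor (rho = 0.48), the fatty acid desaturase Fads1 (-0.47), which lies 2769887 bp from Fam111a on chromosome 1, the deubiquitinase Usp13 (-0.43), LOC100910577 (0.43) and Ppp1cb, a catalytic subunit of protein phosphatase 1 (0.43). These are measures of likeness, with an adjusted p of 0.335 for each. Pearson's r was 0.33 for Sbds (0.31 without the 2 farthest eyes, 0.25 within the common prefix and 0.56 within the others) and -0.38 for Fads1 (-0.39, -0.26 and -0.61).

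Ranking eyes within the sets of 22 and 28 eyes, an alternative chosen after seeing the data, gave a different picture. The 7 eyes with 3 counts or fewer of Fam111a all lie in the set of 22, so ranks there rest in part on few counts. Within sets, 1609 genes passed (11.6%), 1360 of them positive and 249 negative, and by the same sets the count was 1656 with median-of-ratios scaling, 1134 in the eyes of the common prefix and 1522 without the 3 deepest eyes. The 699 named genes tested all come from the study's list of genes with a local expression variant. Of these, 52 passed, a smaller share than the 11.6% of all genes, 37 positive and 15 negative. The positive ones with the largest rho were Dhx36, a helicase of four-stranded nucleic acids (0.69), the transcription factor Gpbp1 (0.68), LOC100910577 (0.68), Dipk2a (0.67) and Oxr1, which protects against oxidative damage (0.67). The negative ones included the focal adhesion protein zyxin, Zyx (-0.53), the lipid droplet enzyme Pnpla3 (-0.52), fibromodulin, Fmod (-0.51), and the mRNA export adaptor Alyref (-0.48). In the lower and the higher set, rho of Dhx36 was 0.52 and 0.77, and that of Zyx was -0.40 and -0.58.

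Of the 11 expressed neighbours of Fam111a within 1 Mb, 0 passed over the 51 eyes and 3 of the 11 passed within sets, where 11.6% of all genes did. ENSRNOG00000050414, whose start is 202819 bp from that of Fam111a, had rho = 0.24 over all eyes and 0.71 within sets (adjusted p = 0.000434). Its level was low, at 0 in 9 eyes, 1.36 CPM in the median eye and 4.54 CPM at most, so its ranks rest on few counts. ENSRNOG00000048953, 263955 bp away, ranged from 0 in 7 eyes to 137 CPM with a median of 46.8 CPM, and had rho = 0.32 over all eyes (permutation p = 0.022, adjusted 0.345) and 0.65 within sets (adjusted p = 0.000434). ENSRNOG00000012524, 635226 bp away, had 0.19 and 0.56 (adjusted p = 0.0013). Of the 23 rows above 0 in any eye within 1 Mb, the nearest to Fam111a was ENSRNOG00000036622 at 26272 bp, which was listed at 0 in 43 of the 51 eyes and reached 0.611 CPM at most, too few counts to read from its rho of 0.49 (adjusted p over all rows above 0, 0.377). It lies outside the rule for named genes and was added after its values were seen. In the lower and the higher set of Fam111a, rho was 0.44 and 0.84 for the first of these rows, 0.43 and 0.76 for the second and 0.45 and 0.61 for the third.

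ENSRNOG00000048953 covered nearly the same range in both sets of Fam111a eyes. It had a median of 40.6 CPM, from 0 to 132 CPM, in the 22 lower eyes of Fam111a and of 49.1 CPM, from 0 to 137 CPM, in the 28 higher eyes. It was at 0 in 4 of the 22 eyes, in the eye between the sets and in 2 of the 28, one of them eye 50, and no eye had both genes at 0. The rows at 202819 and 263955 bp varied with each other more closely than either did with Fam111a over all eyes (rho = 0.82, r = 0.82, r = 0.83 without the 2 farthest eyes, permutation p = 1e-05, the smallest that 100000 permutations can give, and r = 0.79 and 0.94 within prefixes). With 20 components removed, that r was 0.03, and r with Fam111a was -0.33 for ENSRNOG00000050414 and -0.14 for ENSRNOG00000048953.

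**Figure D3:**
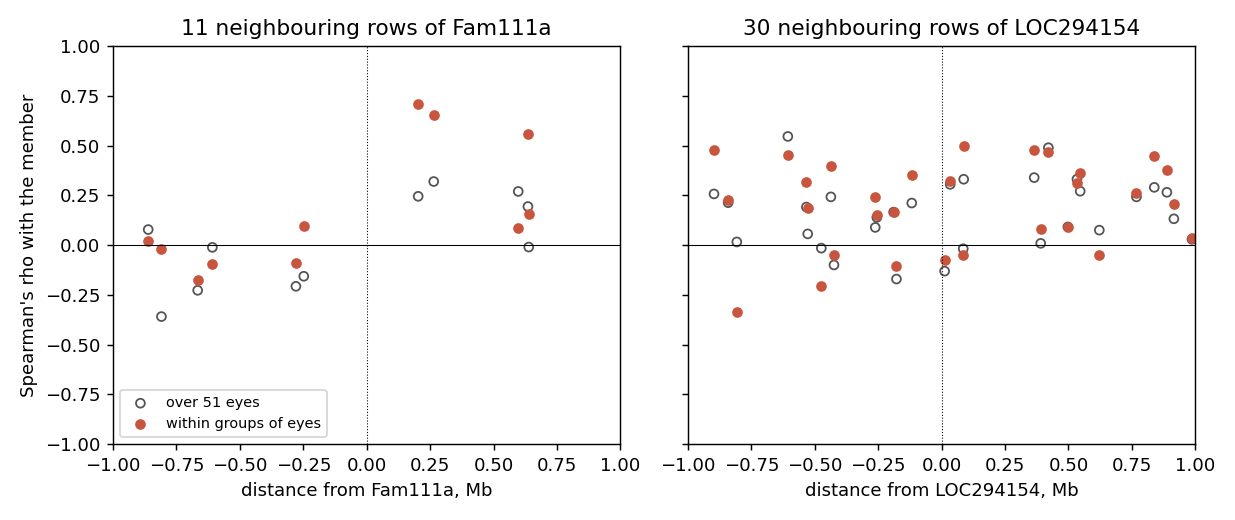
Spearman's rho (vertical axis) of each expressed neighbour with Fam111a (left, 11 rows) and with LOC294154 (right, 30 rows) against the distance of its start in Mb (horizontal axis). Open circles are over 51 eyes and filled circles within sets of eyes, and 3 rows on the right side of Fam111a rise to 0.71, 0.65 and 0.56 within sets.

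With LOC294154, 236 genes passed over the 51 eyes (1.7%), 119 positive and 117 negative, but 0 passed with median-of-ratios scaling and 0 in the 39 eyes of the common prefix. The count was 475 without the 3 deepest eyes and 2104 without eye 50. With 20 components removed, 194 genes passed (1.4%), 21 of them among the 236, but 2 by the t distribution on 29 degrees of freedom. Named genes among the 236 were Crmp1, a protein of growing axons (rho = 0.54), the cell cycle inhibitor Cdkn1a (0.53), the alarmin cytokine Il33 (-0.49), the homeodomain factor Pbx2 (0.49), the secreted Wnt antagonist Frzb (-0.47) and Fads6 (0.47), the last of which was named after its value was seen. Adjusted p-values were 0.0252 for Crmp1, 0.0284 for Cdkn1a and 0.048 to 0.0481 for the others. Cdkn1a lies 1045990 bp and Pbx2 3039715 bp from LOC294154 on chromosome 20.

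Pearson's r changed with the lowest eye for several of these genes. Without eye 50 it went from -0.01 to 0.48 for Pbx2, from -0.03 to -0.39 for Il33, from -0.11 to -0.42 for Frzb and from 0.21 to 0.38 for Crmp1, but only from 0.48 to 0.45 for Cdkn1a. Without the 2 farthest eyes it was 0.50 for Pbx2, -0.36 for Il33, -0.37 for Frzb, 0.38 for Crmp1 and 0.47 for Cdkn1a. In the common prefix and in the other eyes it was 0.42 and -0.24 for Pbx2, -0.37 and -0.09 for Il33, -0.37 and -0.11 for Frzb, 0.39 and 0.20 for Crmp1, and 0.47 and 0.60 for Cdkn1a.

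Ranks within the sets of 10 and 40 eyes, again chosen after seeing the data, gave 3337 genes (24.1%), 1793 positive and 1544 negative. With the same sets the count was 1304 with median-of-ratios scaling, which split into 340 positive and 964 negative, 1854 in the common prefix and 3245 without the 3 deepest eyes. Of 699 named genes 114 passed, a smaller share than the 24.1% of all genes, 71 positive and 43 negative. The positive ones with the largest rho were Six3, a transcription factor of the developing eye (0.61), Lzic (0.59), the vitamin transporter Slc5a6 (0.59), Srebf2, which drives cholesterol synthesis genes (0.58), and the lysosomal mannosidase Man2b2 (0.57). The negative ones were Il33 (-0.68), Guf1, a GTPase of mitochondrial translation (-0.64), Ppp1cb (-0.61), the phosphatase Ptp4a1 (-0.60) and Oxr1 (-0.60). In the sets of 10 and 40 eyes, rho of Il33 was -0.41 and -0.69, that of Ppp1cb -0.73 and -0.61 and that of Six3 0.67 and 0.61. Ppp1cb and Oxr1 varied with Fam111a at 0.66 and 0.67 and with LOC294154 at -0.61 and -0.60, each within the sets of that gene. They were not alone in this, since 1146 genes passed with both, and each of the 1146 had opposite signs. The 1146 were 71.2% of the Fam111a list, where 24.1% of all genes passed with LOC294154. They were 34.3% of the LOC294154 list, where 11.6% of all genes passed with Fam111a. Both lists come from the same 51 eyes, so they are not separate evidence.

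Of the 30 expressed neighbours of LOC294154 within 1 Mb, 2 passed over all eyes, where 1.7% of all genes did, and 7 passed within sets, a share near the 24.1% of all genes. With median-of-ratios scaling 0 passed over all eyes and 1 within sets. The 2 were ENSRNOG00000000487, 605929 bp before it (rho = 0.55, adjusted p = 0.0247, median 7.59 CPM), and ENSRNOG00000000503, 420841 bp after it (rho = 0.49, adjusted p = 0.048, median 58.0 CPM). With median-of-ratios scaling their rho was 0.49 and 0.38. With 20 components removed, r was 0.49 for ENSRNOG00000000487 (adjusted permutation p = 0.027) and 0.06 for ENSRNOG00000000503, and ENSRNOG00000061176, 189156 bp before LOC294154, passed with r = 0.48 (adjusted p = 0.0337, rho = 0.17 over all eyes). On 29 degrees of freedom neither call held, with an adjusted p of 0.604 for both. The nearest expressed row, ENSRNOG00000000493 at 11953 bp, had rho = -0.13 over all eyes and -0.07 within sets.

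Within sets, the share of each eye's counts in the 37 rows of the mitochondrial genome moved with both genes, in opposite directions. Tests against this share and other library summaries were not among the planned tests. This share ran from 0.418% to 8.91% of counts, with a median of 3.15%. Within sets, rho with the share was 0.57 for Fam111a (permutation p, adjusted over 12 tests, 0.00018) and -0.74 for LOC294154 (adjusted 0.00012). Over all 51 eyes, rho was 0.27 for Fam111a (p = 0.0564, adjusted 0.169) and -0.41 for LOC294154 (p = 0.00285, adjusted 0.0259). Other summaries of the libraries moved with the genes too. Fam111a had rho = 0.41 within sets with the number of rows above 0 (adjusted 0.0111) and 0.48 with the third expression component (adjusted 0.00285), and LOC294154 had 0.50 with the first component (adjusted 0.00285), against 0.39 over all eyes (adjusted 0.0259). The other tests within sets did not pass. Of the 15 expressed mitochondrial rows, 12 passed with Fam111a within sets, each positive, where 11.6% of all genes passed. With LOC294154 15 passed, each negative, where 24.1% of all genes passed. These rows are part of the mitochondrial share, so their counts are not separate evidence.

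The opposite directions were present in each larger set of eyes. For LOC294154, rho with the share was -0.75 in the 40 upper eyes (r = -0.72, r = -0.71 without the 2 farthest eyes, adjusted permutation p over 4 tests 4e-05) and -0.67 in the 10 lower eyes (r = -0.71 and -0.42, adjusted p = 0.0392). For Fam111a it was 0.61 in the 28 higher eyes (r = 0.58 and 0.62, adjusted p = 0.00172) and 0.50 in the 22 lower eyes (r = 0.53 and 0.55, adjusted p = 0.027). Those 22 eyes reached 4.48 CPM at most and include the 7 with 3 counts or fewer. In the eyes of the common prefix rho was -0.72 and -0.76 for LOC294154 in the 40 and 10 eyes. For Fam111a it was 0.64 and 0.43 in the 28 and 22 eyes. In the eyes of other prefixes it was -0.58 for LOC294154 (9 of the 40 eyes) and 0.61 for Fam111a (7 of the 28). Mitochondrial counts are part of the total that sets the CPM. With levels scaled to the counts outside the mitochondrial rows, rho was -0.61 and -0.58 for LOC294154, the last with an adjusted p of 0.0864. For Fam111a it was 0.62 and 0.50. With median-of-ratios scaling, rho of LOC294154 was -0.64 in the 40 eyes. In the 9 eyes of other prefixes among the 40, it was -0.40 on the first of these scalings and 0.08 on the second. Whether the mitochondrial share or the components have a part in the counts of genes within sets was not tested.

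**Figure D4:**
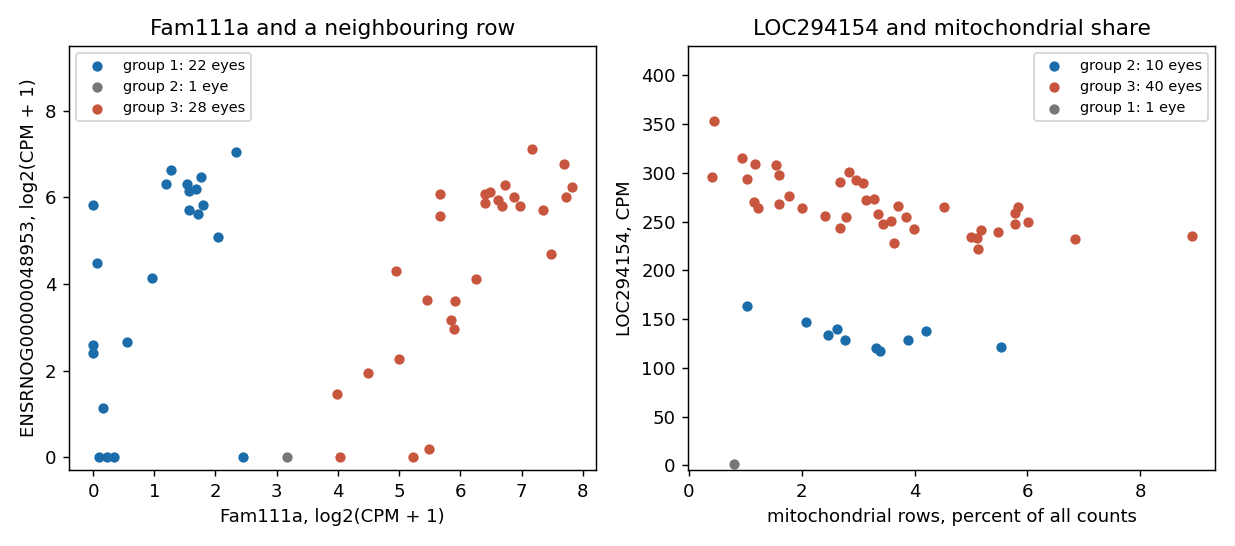
Left, ENSRNOG00000048953 (vertical axis) against Fam111a (horizontal axis), both as log2(CPM + 1), 1 point per eye, coloured by the 22, 1 and 28 eyes of the Fam111a sets. Right, LOC294154 in CPM (vertical axis) against the mitochondrial share of counts in percent (horizontal axis). The sets of 40 and 10 eyes each fall as the share rises (rho = -0.75 and -0.67). The eye at 1.71 CPM, in neither set, lies at the bottom with a low share, 0.801%.

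Of the listed partners of Fam111a in DNA replication, 2 of 30 genes could be matched. The helicase subunit Mcm4 had rho = -0.14 with Fam111a and -0.10 with LOC294154, and Cdkn1a, whose product binds PCNA, had -0.01 with Fam111a. Of the 20 listed interferon response genes only Ifit1 could be matched, and at a median of 0.185 CPM it lay under the limit for testing. The macrophage gene Cd68 had rho = 0.25 with Fam111a and 0.05 with LOC294154, and the globin gene Hbb 0.12 and 0.08. None of these passed except Cdkn1a with LOC294154. The first 20 expression components held 59.2% of the variance of Fam111a and 52.7% of that of LOC294154, against 70.8% for the median gene.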

How the data were processed

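The authors deposited log2 values, each of an expected count from RSEM to which 1 was added. They had aligned the reads with STAR to Rnor_6.0 and had checked labels against DNA genotypes with GATK. Versions of these tools and the annotation used are not stated in the labels or methods. The log2 was undone, each eye was scaled to 1000000 counts, which leaves each value relative to all other RNA in the eye, and log2(CPM + 1) was taken. Names came from start positions in the study's supplementary list (778 genes). Members, lists and tests were chosen with earlier results of these data known. By the rule for named genes, neighbours within 1 Mb and, elsewhere, the rows most like each member by rho or by the test within sets were named where they have a symbol, and 1 of them is not reported here. Sets of eyes were cut at gaps of over 1 with 3 eyes on each side, which gave 1 set for each gene, and, as alternatives, at 0.5 for Fam111a and at 0.4 with any number of eyes for LOC294154. Within sets, both genes were ranked and permuted in each set. Removing components leaves fewer free values than the permutations assume, which makes those p-values too small. Alternatives in scaling, pseudocount, filter, components and eyes were run. Each eye is from another rat. Python 3.11.15, matplotlib 3.10.9, pandas 2.3.3, scipy 1.17.1 and numpy 2.4.6 were used. The tests were run on simulated data in which genes not tied to a member varied independently of each other. That check does not cover genes that vary together or the removal of components. Promoter sequences are from RefSeq (GRCr8), and coordinates of the 2 builds were not combined.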

Additional observations from a re-analysis of the deposited data

How the results depend on the processing

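Of 64 alternative values, 44 were counted as unchanged. These were counts of like size, SDs that moved by less than their own value, and relations or differences on the same side of the threshold. A change of sign was counted as unchanged where neither value passed. So the 44 include the LOC294154 difference by tag prefix, 0.51 in the text and -0.03 without the lowest eye. They also include its SD, 0.99 in the text and 0.43 without that eye. The count of genes that vary with Fam111a, 0 in the text, was 40 with 20 components removed, 1 by the t distribution on 49 degrees of freedom, and 1609, 1656, 1134 and 1522 within sets of eyes by CPM, by median-of-ratios scaling, in the common prefix and without the 3 deepest eyes. The count for LOC294154, 236 in the text, was 0 with median-of-ratios scaling, 46 over all rows above 0 in any eye, 475 without the 3 deepest eyes, 0 in the common prefix, 2104 without the lowest eye, 455 by the t distribution on 49 degrees of freedom and 2 by that on 29 after components were removed. Within sets it was 3337, and 1304, 1854 and 3245 under the same changes as for Fam111a. The cause of these shifts was not tested. Sets of Fam111a eyes numbered 1 by the rule, 2 on the values as deposited and 3 at gaps of over 0.5. Relative to counts outside the mitochondrial rows, the relation of LOC294154 with the mitochondrial share in 10 eyes (rho = -0.58) no longer passed. Depth limits Fam111a in the 7 eyes with 3 counts or fewer. No paired analysis was possible because all eyes form 1 group.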
